A study of Mus musculus with 6 samples.

Results

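The amino acid response genes controlled by the transcription factor ATF4 were examined in mouse megakaryocytes, with a Gata-1 knock down set against wild type. The members were 10 genes, Atf4, Atf3, Ddit3, Trib3, Asns, Chac1, Sesn2, Psat1, Phgdh and Slc7a11, and every probe set whose annotation names only 1 of them was used. This gave 10 of the 18193 genes named on the array and 21 of its 45101 probe sets, of which 20 passed the filter on dim signals. A further 2 probe sets name Phgdh together with a predicted gene and were not counted. The list is a set of genes and no threshold on these values chose it. It was, however, chosen with earlier results of these data known, so the counts below are descriptions and not independent support.

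The wild-type group was 3 arrays, A, B and C, and the Gata-1 knock down group was 3 arrays with the same letters. Both groups share their origin and culture: progenitors taken from mouse fetal livers at day 13.5 of gestation were grown to megakaryocytes, the cells that shed platelets, and were recovered from a bovine serum albumin gradient before RNA isolation. The labels do not give the strain, the allele, the way in which Gata-1 was lowered, or whether the samples of a group came from separate cultures or animals. The p-values thus cover the spread among these arrays alone, and that spread may be technical.

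ATF4 is a bZIP transcription factor that is made when the translation factor eIF2 is phosphorylated. That phosphorylation follows amino acid shortage (through the kinase GCN2), heme shortage (HRI), misfolded protein in the endoplasmic reticulum (PERK) or double-stranded RNA (PKR). Because translation sets much of the ATF4 protein level, the Atf4 transcript does not measure it. ATF4 binds composite C/EBP-ATF sites, also called amino acid response elements, in genes for amino acid synthesis, amino acid import, tRNA charging and feedback on the response itself, and with ATF3 and CHOP (the product of Ddit3) it also acts on genes of stress and cell death.

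The promoters of members were searched for such letters to show which of the genes carry them close to the start site. The 250 bases before each gene's start were read from RefSeq's promoter table (GRCm38.p6), where all 10 members matched and Psat1 has 2 starts. The searched motifs were TGATGNAA, the usual core of the amino acid response element, and the related TGACGNAA and TGGTGNAA, the last chosen after the sequences were seen. Both strands were searched, and no stretch can match more than 1 of the motifs on the same strand, since they differ within their first 4 bases. Of all 32851 windows, 3.45% hold TGATGNAA, 1.39% hold TGACGNAA, 2.79% hold TGGTGNAA and 7.42% hold any of the 3.

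The windows below hold every match found among the members, each read 5′ to 3′ on the gene's strand, with the matching letters in capitals, and they are shown because genes that share the same core went in opposite directions in the knock down.
Asns, chr6:7693210-7693257, minus strand: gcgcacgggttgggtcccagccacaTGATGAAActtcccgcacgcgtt
Chac1, chr2:119350992-119351081, plus strand: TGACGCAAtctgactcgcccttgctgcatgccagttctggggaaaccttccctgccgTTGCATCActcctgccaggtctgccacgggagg
Atf3, chr1:191183411-191183468, minus strand: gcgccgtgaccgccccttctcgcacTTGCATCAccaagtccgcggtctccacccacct
Atf3, chr1:191183334-191183368, minus strand: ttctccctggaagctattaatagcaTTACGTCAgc
Slc7a11, chr3:50443628-50443704, minus strand: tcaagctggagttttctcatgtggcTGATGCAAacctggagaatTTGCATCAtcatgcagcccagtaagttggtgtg
Trib3, chr2:152344061-152344118, minus strand: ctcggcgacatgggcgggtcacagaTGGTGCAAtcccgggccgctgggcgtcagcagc
Psat1, chr19:15925163-15925220, minus strand: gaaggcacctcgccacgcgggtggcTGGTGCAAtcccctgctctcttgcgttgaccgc

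TGATGNAA was found upstream of 4 of the 10 members, Asns, Chac1, Atf3 and Slc7a11, with 2 matches in Slc7a11. The letters TTGCATCA are the same core read on the other strand, and TTACGTCA is TGACGNAA read on the other strand. Trib3 and 1 of the 2 windows of Psat1 hold TGGTGCAA in the same orientation, and the other Psat1 window holds no match. No match to the 3 motifs was found in these windows of Atf4, Ddit3, Sesn2 or Phgdh. A match is a description of letters and not of a bound site.

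Signals are the authors' deposited intensities in arbitrary units, and changes are log2 fold changes of knockdown over wild type, fitted with limma on quantile normalized log2 values to which 32 had been added before the logarithm. Over the whole array 30.4% of 31526 tested probe sets passed a Benjamini-Hochberg adjusted p of 0.05. Of all those tested, 16.1% were higher and 14.3% lower in knockdown. Gata1 itself checked the labels: it read 153.5, 143.3 and 194.7 in knockdown A, B and C and 8723.7, 8246.5 and 8495.6 in wild type A, B and C. The bacterial controls, which match no mouse transcript and served as background, reached 132 on knockdown B and 60.7 to 82.2 elsewhere. Megakaryocyte markers were bright in both groups, with summed signals of 10 markers of 92120 to 114600 in knockdown and 140300 to 150200 in wild type. Of these 10, 8 were lower in knockdown and 0 higher.

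Of the 20 tested member probe sets, 13 were higher in knockdown, 3 were lower and 4 did not pass, against the 16.1% and 14.3% over the array. The deposited signals of the groups did not overlap for 13 of the 20 with knockdown above and 3 with knockdown below, where 29.1% and 16.9% of all tested probe sets did so. With 1 probe set a gene (the one with the highest mean), 6 of 10 members rose, 2 fell and 2 did not pass, against 18.3% and 17.1% of 14230 genes. The median log2 fold change of the 10 was 0.64, and over all genes tested it was 0.03. The genes for amino acid synthesis rose with each of their probe sets, as did Trib3 and Chac1. The stress factors Atf3 and, in its brighter probe set, Ddit3 fell, and Atf4 rose slightly in 1 of its 2 tested probe sets.

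**Figure D1:**
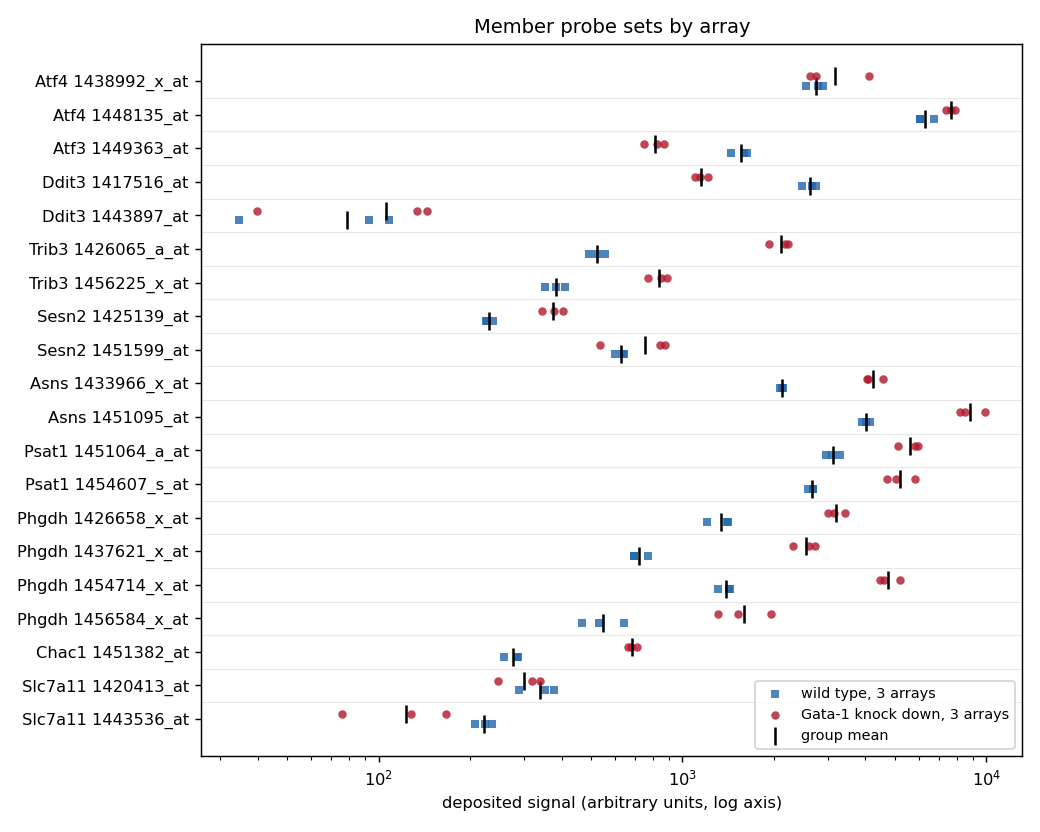
Deposited signal (log axis, arbitrary units) of each tested member probe set on the 3 knockdown arrays (red circles) and the 3 wild-type arrays (blue squares), with group means as black bars. Probe sets of Asns, Psat1, Phgdh, Trib3 and Chac1 lie to the right in knockdown without overlap, those of Atf3, the brighter one of Ddit3 and the dimmer one of Slc7a11 to the left.

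The enzymes of serine and asparagine synthesis moved most uniformly. Phgdh encodes 3-phosphoglycerate dehydrogenase, the first enzyme of serine synthesis from glycolysis. Its brightest probe set, 1454714_x_at, read 4449.6, 5206.2 and 4610.8 in knockdown A, B and C and 1308.9, 1433.7 and 1426.6 in wild type A, B and C. The lowest knockdown array was thus above the highest wild-type array by a wide margin. The log2 fold change was 1.79 ± 0.08 (SE), 3.46-fold, with a limma adjusted p of 9.92e-08. Probe set 1437621_x_at read 2303.7, 2604.2 and 2726.9 in knockdown and 692.9, 771.1 and 694.9 in wild type, a change of 1.78 ± 0.09. Probe set 1456584_x_at varied more within the groups, at 1523.3, 1304.6 and 1957.2 against 643.1, 468.5 and 529.6, and changed by 1.45 ± 0.15. The smallest change of the 4 was 1.27 ± 0.09, for 1426658_x_at, with 3161.1, 3428.2 and 3004.5 against 1401.3, 1205.7 and 1413.6. None of the 4 overlapped between the groups. All 4 carry the suffix x, which marks probes that may also match other transcripts, and the annotation itself ties Phgdh sequence to predicted genes, so these values are uncertain as a measure of Phgdh alone. The 2 probe sets that name Phgdh with a predicted gene changed by 1.39 ± 0.13 and 1.15 ± 0.10.

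Psat1, phosphoserine aminotransferase, carries out the next step of serine synthesis. Its probe set 1451064_a_at read 5798.8, 5106.9 and 5939.5 in knockdown and 3309.9, 2976.1 and 3102.6 in wild type. Its other probe set, 1454607_s_at, read 5828.6, 4713.6 and 5041.7 in knockdown and 2591.7, 2697.4 and 2693.7 in wild type. Neither probe set overlapped between the groups, and the changes of 0.91 ± 0.07 and 1.03 ± 0.08 (SE) had limma adjusted p of 4.98e-06 and 4.39e-06. Psph, the phosphatase that completes serine synthesis and is no member, rose as well, from 760 ± 23.8 to 2105 ± 21.7 (SD, n = 3). Signals for all 3 enzymes of the route were thus higher in knockdown, with the limit given above for the probe sets of Phgdh.

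Asns encodes asparagine synthetase, a gene long used to study the amino acid response element. Probe set 1451095_at read 8177.2, 9901.4 and 8492.8 in knockdown A, B and C and 4153.7, 3902.5 and 4028.3 in wild type. Probe set 1433966_x_at read 4574.2, 4056.2 and 4062.3 against 2101.3, 2146.1 and 2126.8. Neither overlapped between the groups, and they rose 2.26-fold and 2.06-fold, by 1.18 ± 0.06 and 1.04 ± 0.06 (SE) on the log2 scale, with limma adjusted p of 5.44e-07 and 1.19e-06.

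Of the feedback genes, Trib3 rose in both probe sets and Sesn2 in 1 of 2. Trib3 encodes a pseudokinase that binds ATF4 and CHOP and lowers their activity. Probe set 1426065_a_at read 1933.1, 2182.3 and 2231.1 in knockdown A, B and C against 555.6, 491.1 and 525.0 in wild type. This was the largest rise among the member probe sets, 1.93 ± 0.09 (SE) on the log2 scale or 3.82-fold, with a limma adjusted p of 1.95e-07, and 0.225% of tested probe sets rose by more. The other probe set, 1456225_x_at, read 849.1, 768.4 and 888.4 against 354.0, 410.5 and 382.2 and rose by 0.99 ± 0.10 (limma adjusted p 4.44e-05), so the size of the change of Trib3 depends on the probe set.

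Sesn2, sestrin 2, senses leucine and restrains mTORC1. Probe set 1425139_at read 376.5, 403.1 and 344.0 in knockdown and 225.0, 237.9 and 227.3 in wild type, a change of 0.51 ± 0.12 (SE) with a limma adjusted p of 0.0101. Probe set 1451599_at, the brighter of the pair, read 876.5, 535.4 and 845.1 in knockdown and 642.0, 598.0 and 638.9 in wild type. Knockdown B was below all wild-type arrays there while knockdown A and C were above them, and the change of 0.16 ± 0.16 did not pass (limma adjusted p 0.517). Without knockdown B it was 0.38 with a limma adjusted p of 0.0108. The rise of Sesn2 therefore rests on 1 of its 2 probe sets when all arrays are used.

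Chac1 and Slc7a11 act on glutathione from opposite sides. Chac1 encodes an enzyme that breaks glutathione down. Its single probe set read 677.0, 663.5 and 711.2 in knockdown and 287.2, 258.9 and 286.5 in wild type, a rise of 1.12 ± 0.11 (SE), 2.17-fold, with a limma adjusted p of 2.59e-05. The groups were far apart.

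Slc7a11 encodes xCT, the cystine importer that feeds glutathione synthesis. Probe set 1420413_at read 339.1, 246.8 and 319.2 in knockdown and 352.9, 379.3 and 289.9 in wild type. The groups overlapped, and the log2 fold change of -0.29 (95% confidence interval -0.65 to 0.07) did not pass, with a limma adjusted p of 0.218. Probe set 1443536_at read 167.0, 75.8 and 128.0 in knockdown and 207.7, 223.9 and 236.8 in wild type, with knockdown B below its bacterial control signal of 132. It was called lower at -0.93 ± 0.26 (SE, limma adjusted p 0.0216), a call that was lost with no filter (limma adjusted p 0.0525) and without wild type A, B or C (0.0571, 0.0666 and 0.0791). No probe set of Slc7a11 was called higher, although its window holds 2 matches to TGATGNAA. Across all genes with a window and a test, 17.6% of the 301 with TGATGNAA upstream were called higher, and 18.8% of all 11460 were. The shares called lower were 19.9% and 17.5%.

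The 3 transcription factors did not move together. The brightest probe set of Atf4, 1448135_at, read 7351.8, 7669.5 and 7865.9 in knockdown A, B and C and 6717.9, 6027.3 and 6063.4 in wild type. The groups did not overlap and the change was small, 0.37 ± 0.05 (SE) or 1.29-fold, with a limma adjusted p of 5.27e-04. With arrays centred on their medians it was 0.09 with a limma adjusted p of 0.544, so the call of Atf4 depends on the scaling. Probe set 1438992_x_at read 4116.4, 2634.6 and 2740.7 in knockdown and 2556.2, 2891.5 and 2801.8 in wild type, overlapped between groups and did not pass (0.24 ± 0.14, limma adjusted p 0.242). Its value was -0.023 with arrays centred on their medians. The third, 1439258_at, lay below the bacterial controls on all 6 arrays and was not tested.

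Atf3 encodes a bZIP factor that many stresses and growth signals induce, and that also represses its own promoter. Its single probe set read 823.0, 866.4 and 749.4 in knockdown and 1447.1, 1632.4 and 1594.8 in wild type, with no overlap. The log2 fold change was -0.93 ± 0.09 (SE), 1.90-fold lower (limma adjusted p 2.39e-05). Atf3 thus went opposite to Asns and Chac1, which hold TGATGNAA upstream as Atf3 does.

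Ddit3 encodes CHOP, which dimerises with C/EBP factors and ATF4 and is linked to stress-induced death. Probe set 1417516_at read 1097.7, 1145.2 and 1209.2 in knockdown and 2664.9, 2475.8 and 2741.5 in wild type. The groups lay well apart, at -1.14 ± 0.07 (SE), 2.21-fold lower (limma adjusted p 1.67e-06). Probe set 1443897_at was dim, at 134.1, 39.7 and 144.7 against 108.0, 34.7 and 93.3, was at or below the bacterial controls on 1 array of each group, and did not pass (limma adjusted p 0.875).

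**Figure D2:**
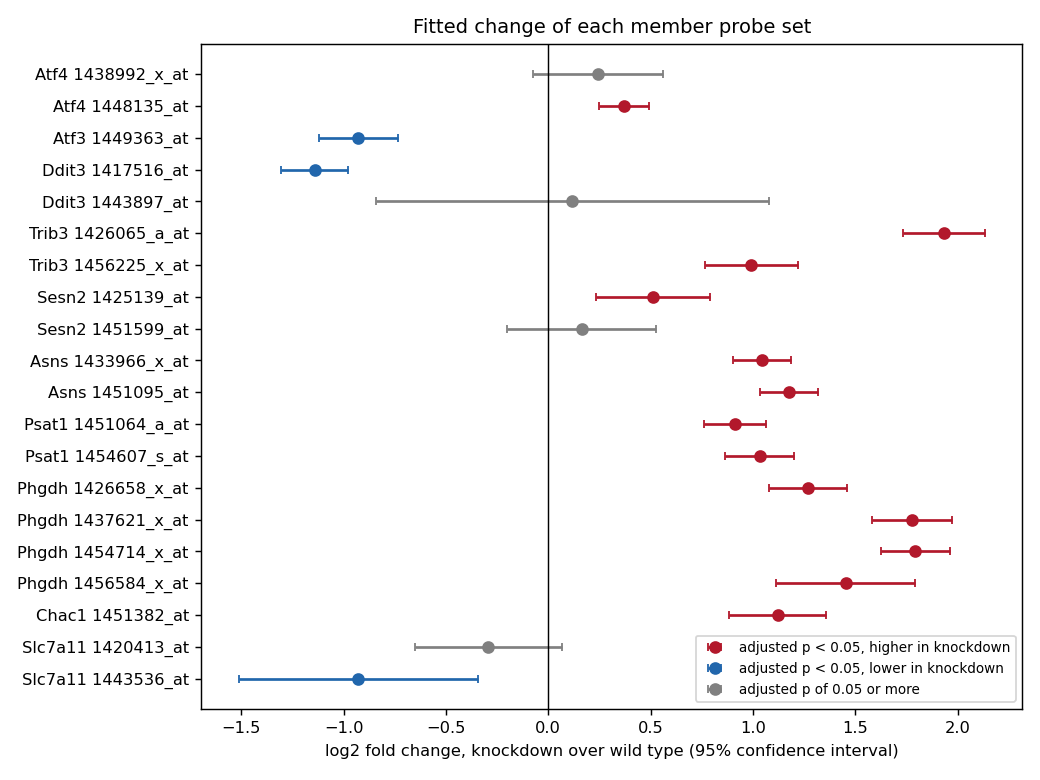
Log2 fold change of each tested member probe set (points) with its 95% confidence interval from the limma fit. Values run from -1.14 for Ddit3 to 1.93 for Trib3, and the intervals of Atf3 and of 1 probe set each of Ddit3 and Slc7a11 lie wholly below 0. Those of all Asns, Psat1, Phgdh, Trib3 and Chac1 probe sets, and of 1 each of Atf4 and Sesn2, lie wholly above it.

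Most tested markers of macrophages, neutrophils and mast cells, other blood cells that such a culture can hold, were lower in knockdown beside the falls of Atf3 and Ddit3. Of 10 macrophage markers, 8 were tested and all 8 were lower, and the summed signal of the 10 was 12150 to 13150 in knockdown and 30070 to 31000 in wild type, with Cd163 and Marco at or below the bacterial controls on all 6 arrays. Of 8 neutrophil markers 7 were lower (sums of 2709 to 2809 against 10510 to 10900), and of 8 mast cell markers 6 were lower (1090 to 1280 against 3984 to 4568). In knockdown, the mast cell markers Mcpt1, Mcpt4, Tpsb2 and Hdc lay at or below the bacterial controls on all 3 arrays. Mcpt2 was above them on only 1 knockdown array. Erythroid markers summed to 3604 to 3811 against 15430 to 15710, with 3 lower and 1 higher of 7 tested. Most of that gap in the erythroid sum lay in the globin Hbb-y, with means of 1125 in knockdown and 9748 in wild type, and the erythropoietin receptor Epor, with means of 757 and 3990, both named after their values were seen. Of 3 tested hepatocyte markers 1 passed, lower. Over all genes tested, 18.3% were higher and 17.1% lower in knockdown. The 10 megakaryocyte markers, 8 of them lower, had a median change of -0.59. In such bulk samples fewer cells of a type and less RNA per cell cannot be told apart, and the part of these markers in the changes of the members was not tested.

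The other genes of the pathway were taken from 6 lists, also chosen with earlier results of these data known. The lists had 71 entries, of which 68 matched a probe set and 67 were tested. Of these 36 rose, 8 fell and 23 did not pass, against 18.3% and 17.1% over all genes, with a median log2 fold change of 0.33 where all genes had 0.03. The counts depended on the scaling: 40 rose and 10 fell with the values as deposited, and 19 rose and 13 fell with arrays centred on their medians, where 1190 of all genes rose and 2958 fell.

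Most amino acid transporters rose. In this list of 9 genes 7 were higher and 0 lower (median 0.86), and 2 missed the threshold. Of those 2, Slc1a4 had -0.12, with 1 of its 3 tested probe sets called lower, and it was named after its value was seen. Slc1a5, which imports glutamine and other neutral amino acids, went from 660.7, 681.9 and 578.8 in wild type to 3247.5, 3524.1 and 3803.2 in knockdown, a log2 fold change of 2.41 ± 0.09 (SE) that was larger than that of any member. The cationic amino acid transporters Slc7a3 and Slc7a1 rose by 1.88 ± 0.15 and 0.99 ± 0.06, and the glycine transporter Slc6a9 by 1.17 ± 0.08. With arrays centred on their medians 5 of the 9 rose, these 4 among them, and 0 fell. Slc3a2, the heavy chain that pairs with the Slc7a11 product, had 0.20 ± 0.07 and did not pass (limma adjusted p 0.0557). It was named after its value was seen.

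Enzymes of amino acid and folate metabolism also went up. Among 10 such genes 6 were higher and 0 lower (median 0.80), and 4 missed the threshold, with the same 6 and 0 under centring on medians. Cth, cystathionine gamma-lyase, which releases cysteine from cystathionine, had a knockdown mean of 511 ± 15.8 against 98.6 ± 23.5 (SD, n = 3 each). It rose by 1.93 ± 0.16 (SE, limma adjusted p 1.01e-05). Psph rose by 1.43 ± 0.07. Shmt2 and Mthfd2, mitochondrial enzymes that pass on the carbon of serine through folate, rose by 1.19 ± 0.06 and 1.10 ± 0.08. Cth was thus higher while no probe set of Slc7a11 was called so. Cbs, cystathionine beta-synthase, had 0.11 ± 0.21 (SE), overlapped between the groups and did not pass (limma adjusted p 0.742). It was named after its value was seen.

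Of 13 genes for tRNA charging and export, 12 rose, 0 fell and 1, Aars, did not pass (median 0.43). The largest rises were those of the seryl-tRNA synthetase Sars, at 1.10 ± 0.08 (SE), and the leucyl-tRNA synthetase Lars, at 1.07 ± 0.10, followed by the tyrosyl-tRNA synthetase Yars at 0.72 ± 0.08 and the tRNA exporter Xpot at 0.69 ± 0.08. Most of the others were small rises, and with arrays centred on their medians 5 of the 13 rose and 0 fell, while the fitted changes of Gars and Aars turned to -0.043 and -0.16 there. Aars and Gars were named after their values were seen. At an unadjusted limma p under 0.05 as well, 0 genes of this list, of the transporters or of the enzymes were lower in their brightest probe set.

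Among the other bZIP factors and partners, 3 rose, 3 fell and 4 of 10 did not pass, while 1 rose and 6 fell with arrays centred on their medians. Atf5, a close relative of ATF4 whose translation is controlled in the same way, read 2920.5, 3396.8 and 3597.7 in knockdown and 1036.7, 980.4 and 965.5 in wild type. It rose by 1.72 ± 0.09 (SE, limma adjusted p 3.68e-07), where Atf4 had 0.37 ± 0.05. Nupr1, a stress-induced chromatin protein, changed by -1.47 ± 0.27, with knockdown B at or below the bacterial controls. Jun, an AP-1 subunit, changed by -0.30 ± 0.06, with 1 of its 2 tested probe sets called lower. Atf2 changed by 0.37 ± 0.07, with 3 of its 5 tested probe sets called higher. The limma adjusted p of Atf2 was 0.463 when arrays were centred on their medians. The other calls, named after their values were seen, were Cebpg at 0.29 and Nfe2l2 at -0.18, each with 1 probe set called in either direction. Cebpg did not pass under centring on medians (limma adjusted p 0.669).

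Genes acting on eIF2 were mixed. The heme-regulated kinase HRI, Eif2ak1, was the only one of the 4 kinases called in its brightest probe set, and it was lower: 898.3, 1081.4 and 1138.9 in knockdown against 2000.4, 1882.4 and 1959.1 in wild type (-0.88 ± 0.10 SE, limma adjusted p 8.11e-05). Of its 4 tested probe sets 3 were called lower. PKR (Eif2ak2), with 1 of 3 tested probe sets called lower, had -0.18 ± 0.12, PERK (Eif2ak3) 0.01 ± 0.08 and GCN2 (Eif2ak4) 0.42 ± 0.16, with limma adjusted p of 0.341, 0.929 and 0.0732. The call for GCN2 was higher with the values as deposited, at 0.54 (limma adjusted p 0.0181), and 1 of its 2 tested probe sets was called higher. The phosphatase subunit Ppp1r15a, GADD34, which reverses eIF2 phosphorylation and is itself an ATF4 target, changed by -0.37 ± 0.05. Ppp1r15b changed by -0.18 ± 0.05, with 1 of its 2 tested probe sets called lower. Both were named after their values were seen. Among subunits of eIF2 and its exchange factor, Eif2b2, Eif2b3 and Eif2s2 rose by 0.50 ± 0.06, 0.44 ± 0.10 and 0.43 ± 0.04, calls that were lost with arrays centred on their medians (limma adjusted p 0.0903, 0.111 and 0.0887). In that list of 15 genes 5 rose and 3 fell, and 7 rose and 3 fell with the values as deposited. With arrays centred on their medians 0 rose and 4 fell, since the other 2 rises, of Eif2s3x and Eif2b1, were lost there as well (limma adjusted p 0.843 and 0.366). Those 2 genes were named after their values were seen.

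The remaining 10 targets split, with 3 higher, 2 lower and 5 that missed the threshold, and with 2 higher and 3 lower under centring on medians. Ero1a, an oxidase of the endoplasmic reticulum that CHOP can induce, rose by 0.81 ± 0.05 (SE), and the lipoprotein receptor Vldlr by 0.63 ± 0.05. The growth arrest genes Gadd45b and Gadd45a, which many stresses induce, changed by -2.46 ± 0.12 and -1.58 ± 0.10, with Gadd45b at 220.1, 289.3 and 205.9 in knockdown and 1475.7, 1275.1 and 1393.0 in wild type. The puma gene Bbc3 and Ddit4, named after their values were seen, had 0.14 ± 0.07 and 0.20 ± 0.13 and did not pass.

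**Figure D3:**
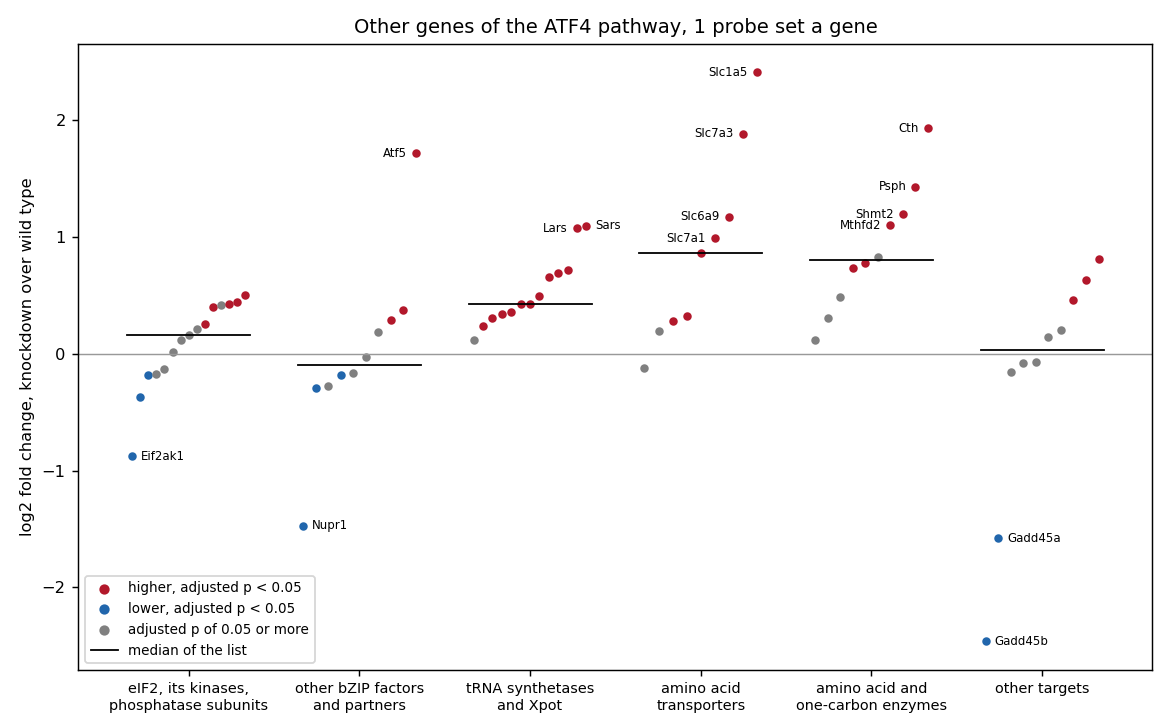
Log2 fold change of each of 67 other pathway genes in 6 lists, 1 point a gene, colored by the limma call, with the median of each list as a black line. No gene among the transporters, enzymes and tRNA charging genes was called lower in its brightest probe set, while Gadd45b at -2.46, Gadd45a at -1.58 and Nupr1 at -1.47 are the largest falls.

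**Figure D4:**
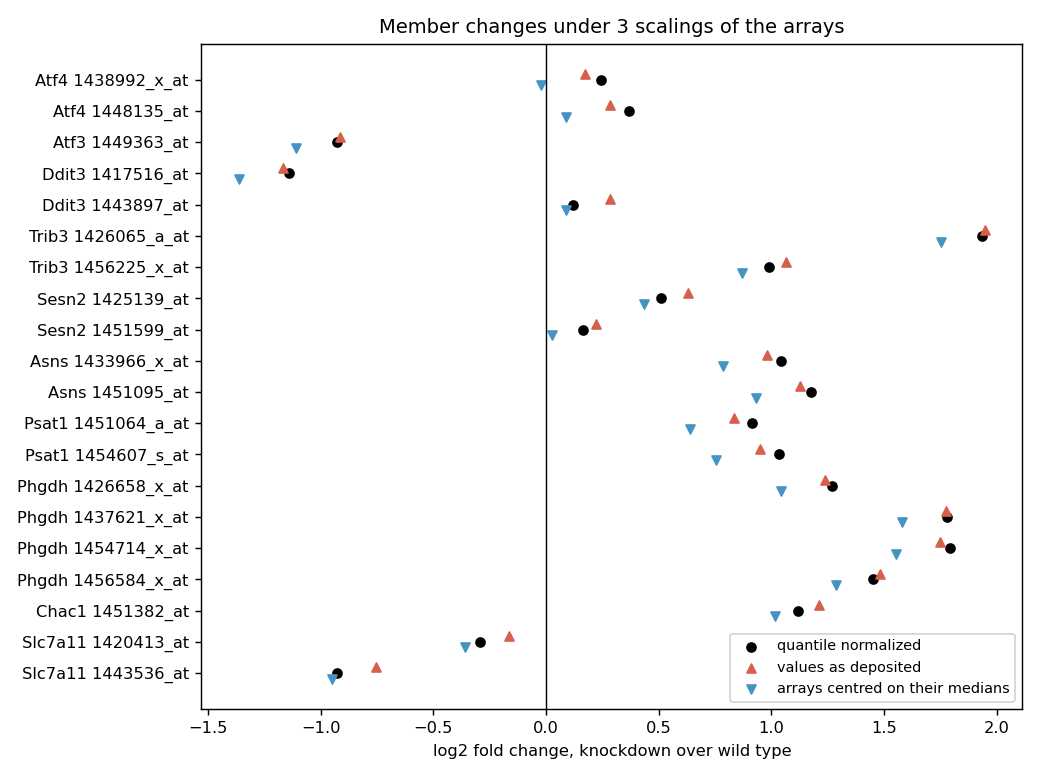
Log2 fold change of each tested member probe set after quantile normalization, with the values as deposited and with arrays centred on their medians. Centring moves most points to the left, and only the 2 Atf4 probe sets change their call or sign, to 0.09 and -0.023.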

How the data were processed

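The members and gene lists were chosen with earlier results of these data known. The authors deposited 1 table of signal intensity on a linear scale for 6 arrays. As the values show, the mean of each column after trimming 2% of probe sets at each end was 500.0. The signal software and any build were not given in the sources used here.

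Tests used log2(signal + 32) after quantile normalization. The 64 control probe sets and those with a mean below the 30th percentile were left out, which left 31526. limma 3.58.1 in R 4.3.3 (lmFit, and eBayes with an intensity trend) compared the groups with group as the only term, two-sided, with Benjamini-Hochberg adjustment over all probe sets tested. The offset understates the change of dim genes. Background was the highest of 27 bacterial control probe sets on each array. Probe sets were named from GEO's platform annotation where it names 1 gene, 34945 of them, with symbols updated by gene number from a GRCm38.p6 table, and 11 tRNA synthetases were matched by that table's older symbols. A gene was represented by its tested probe set with the highest mean. The genes named are all members, Gata1, the 4 eIF2 kinases and up to 4 called genes of each list with the largest changes. The fit was tested on simulated data. Alternatives were no normalization between arrays, centring on medians, offsets of 1 and 100, no filter, a filter at the 50th percentile, a replicate block, each array left out and the mean of a gene's probe sets. The number of arrays limits the precision.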

Additional observations from a re-analysis of the deposited data

How the results depend on the processing

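Of the 20 tested member probe sets, 15 kept their direction and their side of the threshold under every alternative run. The exceptions were both Atf4 probe sets under centring on medians (-0.023 and 0.09), Sesn2 1451599_at without knockdown B, Slc7a11 1443536_at, and the dim Ddit3 1443897_at, whose change ranged from -0.23 to 0.58 with 1 array left out and was below 0 without knockdown A, knockdown C or wild type B. Centring on medians gave 12 member probe sets higher and 3 lower, and over the array 2609 probe sets higher, against 5062. Under it 19 other pathway genes rose and 13 fell. Rises were 52.9% of calls over the array, 60.0% with the values as deposited and 32.9% with centring, and the median change of tested probe sets was 0.041, 0.15 and -0.045. The cause of these shifts was not tested.

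Leaving out each array in turn gave 13 to 14 member probe sets higher and 2 to 3 lower, 33 to 39 other pathway genes higher and 6 to 10 lower, and over the array 3918 to 5517 higher and 3465 to 5192 lower. With the replicate letter as a block (replicate block), 13 member probe sets were higher and 3 lower, and no call of a member changed. Same-letter arrays of the groups did not deviate together (correlations of -0.042, -0.017 and -0.01), so the letters were not taken as pairs.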
